A study of Mus musculus with 12 samples.

Results

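Intronic circRNAs were examined in the whole blood of male Balb/c mice after middle cerebral artery occlusion (MCAO). These are circular RNAs that the study typed as aligned with intronic regions of known transcripts. MCAO blocks the artery that feeds much of a brain hemisphere with a filament and is a model of ischemic stroke. The members are the 60 distinct circRNAs typed as intronic among the 903 circRNAs of the study's list of differentially expressed circRNAs, and each was linked to 1 of the 14236 circRNA probes of the arrays. A circRNA entered that list when its log2 intensity in an MCAO group differed from sham by at least 2 with an adjusted p of at most 0.05. The members were thus chosen by their differences from sham, which are given below as a description, with no test.

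The design comprised 12 one-colour arrays in 4 groups of 3: mice that received the sham operation (occlusion for 0 h) and mice with MCAO that lasted 5 min, 3 h or 24 h. All were labelled as 8 weeks old, while the methods state another age, and the labels do not say whether the blood of several mice was pooled, so the spread between arrays of a group may be partly technical. RNA was taken from blood drawn from the heart under anesthesia and digested with RNase R, which removes linear RNA, before Cy3 labeling, and in whole blood a change in the number of cells of a type cannot be told apart from a change of RNA per cell. The files used here name no probe outside the list, and markers of blood cell types were not analysed here.

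The arrays lay on 2 slides, as read from the scan times in their headers. All sham and 5 min arrays and replicates 1 and 2 of 3 h were on slide 1. On slide 2 were all 24 h arrays and, as the only link to slide 1, replicate 3 of 3 h, and sham and 24 h thus had no slide in common. The median of the negative control spots was 25 to 27 on slide 1 and 83.5 to 101 on slide 2. Among the circRNA probes, 84.6% to 85.5% per array were well above background in sham, 70.9% to 77.1% at 5 min and 84.1% to 88.0% at 3 h. At 24 h it was 90.2%, 78.0% and 73.0% on replicates 1 to 3. The raw medians of the circRNA probes were 83 to 112.75 in sham, 50 to 69 at 5 min, 99.5 to 200 at 3 h and 160 to 220.5 at 24 h. The 5 min arrays were thus the dimmest, and what this does to differences from them was not tested. Of the 60 intronic circRNAs, 59 were well above background on all 12 arrays and none had an outlier or saturated spot. The exception was the Gpc5 circle, which was well above background on 1 of 3 sham arrays and on none of the 5 min arrays. All 60 passed the intensity limit that left 10678 probes for testing.

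CircRNAs are closed RNA rings. Most known circles form when a downstream splice site is joined back to an upstream one, whereas an intronic circle may also be an intron lariat that escaped debranching. Intronic circles have been described as mainly nuclear RNAs that can act on transcription of their own host gene. Because a ring has no free ends, it outlasts linear RNA in blood and resists RNase R.

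The host genes were found by placing each circle on the RefSeq annotation of GRCm38, the build named mm10 in the study. Places were matched by coordinates, and the strands of circle and gene were not compared. The type is that of the list and was not checked against exon borders. For some circles the place sits poorly with it: mmu_circRNA_21246 ended on the last base of Gm34207. The middle of mmu_circRNA_31691 lay 99.9% along Ppp2r2b from the upstream end of the gene. The 60 circles lay on 19 chromosomes, and 59 lay wholly inside a RefSeq gene. The exception was mmu_circRNA_19080 (chr12:104237731-104247974, plus strand, 10244 bases), which overlapped the protease inhibitor genes Serpina3g and Serpina3h without lying inside either. For these 59 circles the host was a protein-coding gene in 49, a long non-coding RNA (lncRNA) gene in 9 and a transcribed pseudogene in 1. For 54 circles the listed symbol was that of a gene at the place. For the other 6 the place was named by RefSeq: mmu_circRNA_24855 lay in Myt1l, mmu_circRNA_19041 in Plekhm1, mmu_circRNA_19502 in Zfpm1, mmu_circRNA_26097 in B230303A05Rik, mmu_circRNA_20764 in Dpp10, and mmu_circRNA_19080 is the Serpina3g circle just described.

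The circles came from 52 separate loci, because 14 of them shared 6 loci. The lncRNA gene Gm20754 held 4 of them, and Dab1, Rbfox1, Dlgap2, Etv6 and the overlapping genes Rbm4 and Gm21992 held 2 each. Circles of a locus overlap on the genome and are not independent of each other. The host genes ranged from the 2684 bases of Rps13 to the 1612235 bases of Nrxn3.

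Intronic circles were short beside exonic ones. Their median span on the genome was 3078 bases, against 12236 bases for the 664 exonic circles of the list, 8650 for the 139 sense overlapping ones, 6948 for the 20 intergenic ones and 1324 for the 20 antisense ones. A span under 1000 bases was seen in 17 of 60 intronic circles (28.3%) and in 61 of 664 exonic circles (9.19%). Of the intronic circles, 7 spanned less than 150 bases, the shortest being the 69 bases of mmu_circRNA_19372 in Ep400, and the longest was the 139260 bases of mmu_circRNA_31621 in the protocadherin alpha cluster. The span is the distance between the ends of a circle and is not the length of the RNA, which may be spliced.

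Small RNA genes overlapped 3 of the circles. The circle mmu_circRNA_015174 (chr7:116333180-116333258, minus strand, 79 bases) of the ribosomal protein gene Rps13 shared 78 of its 79 bases with Snord14a, a box C/D small nucleolar RNA (snoRNA) gene of 87 bases in an intron of Rps13. The Ep400 circle mmu_circRNA_19372 (chr5:110692047-110692115, minus strand, 69 bases) shared 67 of its 69 bases with LOC115490290, annotated as a snoRNA gene of 133 bases. Small nucleolar RNAs of this class guide the chemical modification of other RNAs, and whether the probes of these circles also read the snoRNAs was not tested.

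The 28122 bases of mmu_circRNA_41532 (chr7:61786069-61814190, minus strand) in the lncRNA gene A230057D06Rik held the whole hairpin of Mir344b (chr7:61790519-61790581, minus strand), the only hairpin of the 1005 in the RefSeq miRNA table that lay inside 1 of the 58 circles searched. Its mature arms are shown because of the low p of this circle in the test of 3 h against 5 min described further on. That p was the lowest among the circles listed at 24 h only. Capitals mark the seed, bases 2 to 8, and the sequences are those of RefSeq (GRCm38).
mmu-miR-344b-5p: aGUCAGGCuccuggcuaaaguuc
mmu-miR-344b-3p: cAUUUAGCcaaagccugacugu
The seeds of both arms differ, and the array measures the circle and not the miRNA. Promoter windows of RefSeq were searched in the same 58 circles, and whether the circles left out hold any was not tested. Among the 58, only mmu_circRNA_32945 of Celf2 (chr2:6721416-6747950, minus strand) contained a whole promoter window, that of Celf2 itself. This window ended 197 bases before the downstream end of the circle.

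Most of the intronic circles of the list were higher after MCAO. At 24 h, 37 were listed as higher and 17 as lower, beside 4.57% of all tested probes past the same thresholds upward and 3.06% downward. At 3 h, 12 were listed, all as higher (1.77% of probes upward and 0.0656% downward), and all 12 were also listed as higher at 24 h. At 5 min, 3 were listed as higher and 4 as lower (0.0937% and 1.09% of probes). The lists thus held 25 circles that were higher at 24 h only, 16 that were lower at 24 h only, 12 that were higher at 3 h and 24 h, 6 listed at 5 min only and the Tsc2 circle, which was lower at 5 min and 24 h. Among the circRNAs of the other types in the list, 439 of 735 at 24 h (59.7%), 178 of 186 at 3 h (95.7%) and 7 of 122 at 5 min (5.74%) were higher. The 3 intronic circles that were higher at 5 min all came from Gm20754.

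The 37 circles listed as higher at 24 h were already above sham at earlier times. Their median difference from sham was 0.74 at 5 min and 1.65 at 3 h. By 24 h it had reached 2.90, with a range from 2.00 to 7.46, while the medians over all tested probes were 0.10, -0.12 and -0.18. Of the 37, 36 lay above the sham mean at 5 min, with Celf2 as the exception, and 37 at 3 h. The Gpc5 circle counts here and in the 5 min counts that follow, although none of its 5 min arrays was well above background. The means were higher at each step from sham to 24 h in 31 of 37. All 3 arrays lay above all 3 sham arrays for 16 of the 37 at 5 min, for 33 at 3 h and for 37 at 24 h, which held for 23.4%, 13.7% and 19.5% of all tested probes. The 17 circles listed as lower at 24 h had medians of -0.15, -0.93 and -2.38, all 17 lay below the sham mean at 3 h, and the means were lower at each step in 10. Their 3 arrays lay below all sham arrays for 4 of the 17 at 5 min, 8 at 3 h and 17 at 24 h, beside 16.0%, 17.2% and 24.9% of all tested probes. These counts share the sham arrays that chose the members, and those at 24 h also share the 24 h arrays of the listing. Of the 37, 12 were also listed at 3 h, and of the 17 the Tsc2 circle was also listed at 5 min. The shares of all probes are thus no independent gauge of these counts.

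The slide bore on the size of these differences. With slide as a term in the model, which leaves replicate 3 of 3 h as the link between slides, the median at 24 h was 3.34 for the 37 higher circles, of which 36 stayed above 0 and 34 at or above 2. For the 17 lower circles it was -1.68, with none above 0 and 5 at or below -2. At 3 h, replicate 3 lay below the mean of replicates 1 and 2 for 13 of the 17 lower circles, with a median gap of -0.79, and above it for 9 of the 37 higher circles, with a median gap of -0.43, whereas 39.6% of all tested probes lay above it, with a median gap of -0.16.

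**Figure D1:**
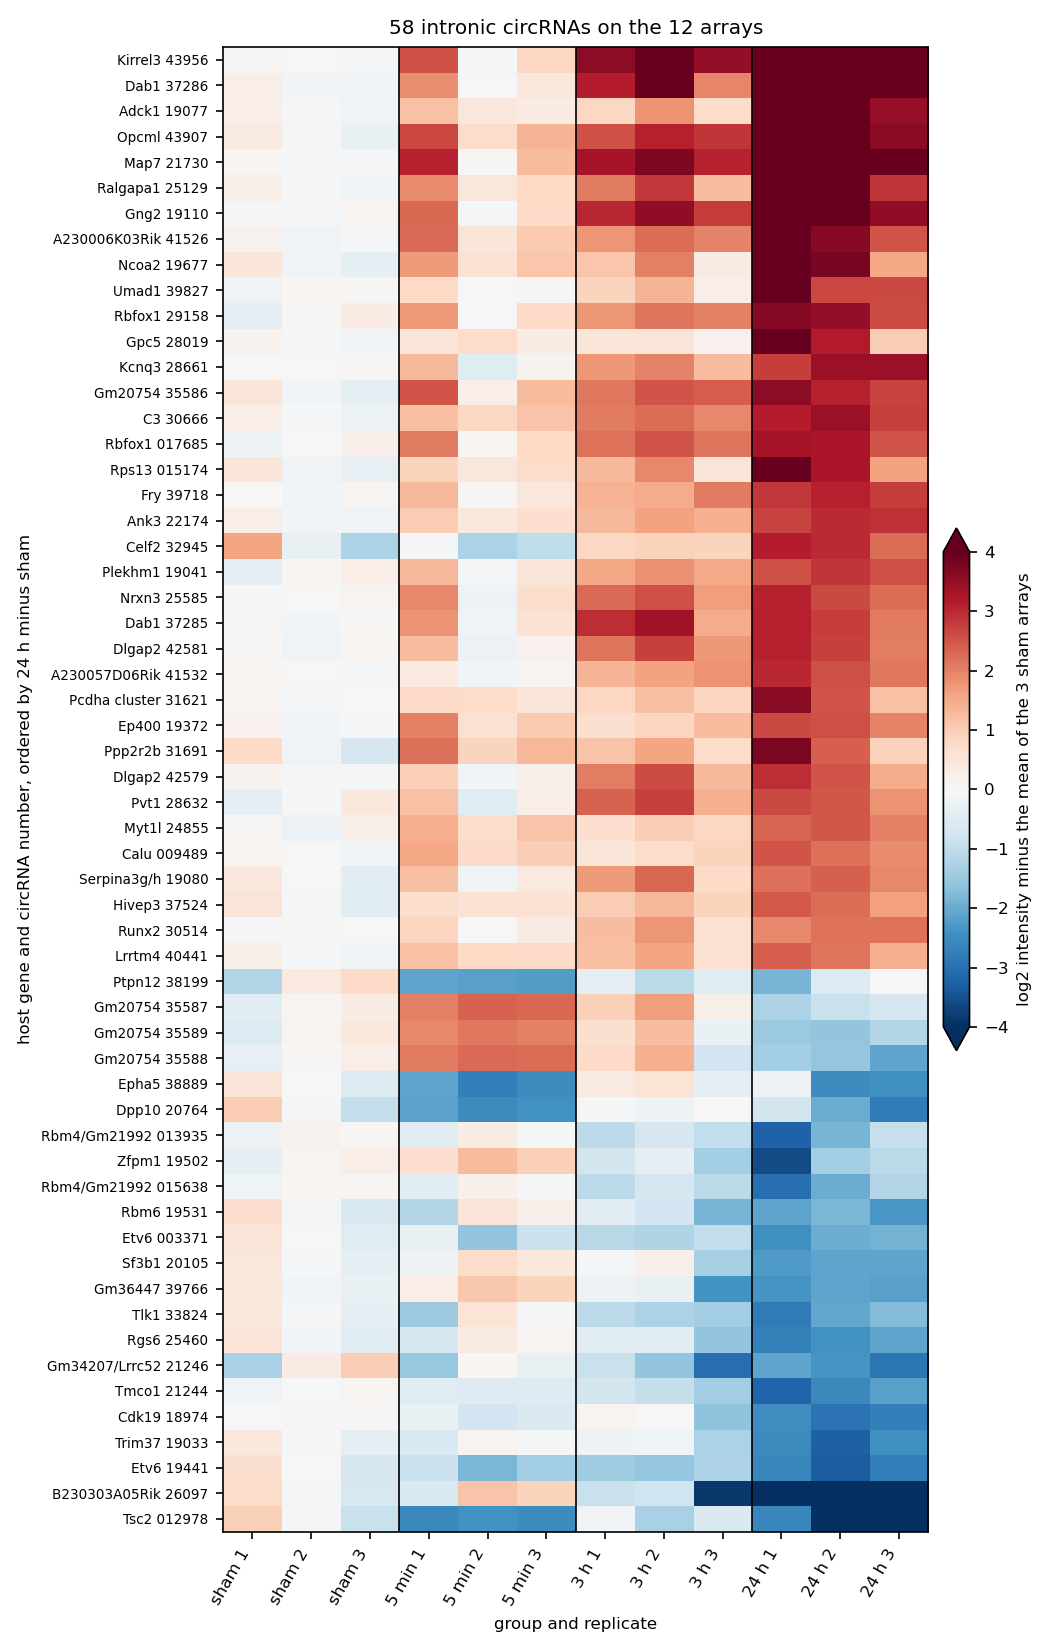
Log2 intensity of 58 of the 60 intronic circRNAs (rows, with host gene and circRNA number, ordered by 24 h minus sham) on the 12 arrays (columns, by group and replicate), as the difference from the mean of the 3 sham arrays, with colours held at 4 in either direction. The 36 upper rows turn red by 24 h, the 16 lowest turn blue, and the 6 rows between, listed at 5 min only, depart most on the 5 min arrays.

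Replicates did not vary alike. Among the 37 higher circles, replicate 1 was the highest of the 5 min arrays for 36 and replicate 2 the lowest for 33. Replicate 3 was the lowest of the 24 h arrays for 34 of the 37, and replicate 2 was the highest of the 3 h arrays for 32. The median SD among the 60 circles was 0.28 in sham and 0.48, 0.44 and 0.45 in the MCAO groups by duration, beside 0.28, 0.28, 0.31 and 0.46 over all tested probes.

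Genes of the synapse and of neuronal adhesion hosted 10 of the 60 circles. Of these, 9 were listed as higher at 24 h, 4 of them also at 3 h, and 1 as lower at 5 min, with median differences from sham of 0.58, 2.08 and 2.64 at the successive times. The 11 circles of other neuronal or brain-rich genes had 10 listed as higher and 1, in Rgs6, as lower at 24 h, and medians of 0.74, 1.65 and 2.87. The medians over the 60 circles were 0.59, 1.03 and 2.31. These groupings of hosts were made with the listed directions known. The second group left out Dpp10, known from neurons, whose circle was listed as lower at 5 min. With Dpp10 counted in, the median of that group at 24 h was 2.83.

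The largest difference from sham at 24 h was that of mmu_circRNA_43956 (chr9:34536915-34538449, plus strand, 1535 bases) in Kirrel3, whose protein is a synaptic adhesion molecule. Its log2 intensities were 6.21, 6.15 and 6.08 on the sham arrays, 8.70, 6.08 and 6.98 after 5 min, 9.73, 10.69 and 9.68 after 3 h and 13.85, 14.22 and 12.77 after 24 h of MCAO. The sham arrays were tight, the arrays of 5 min reached from the sham level to well above it, and those of 3 h and 24 h lay above all earlier ones. The mean was 6.15 ± 0.06 (SD, n = 3) in sham and 13.61 ± 0.75 (SD, n = 3) at 24 h, a difference of 7.46 (SE 0.57) or 176-fold, with 3.89 (SE 0.57) at 3 h. With the slide term the 24 h difference was 8.00.

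Dab1, the adaptor that carries the reelin signal into migrating neurons, hosted 2 circles that start at the same base. The longer, mmu_circRNA_37286 (chr4:103754180-103764967, plus strand, 10788 bases), read 5.82, 5.45 and 5.44 on the sham arrays, 7.42, 5.56 and 6.01 after 5 min, 8.71, 9.68 and 7.51 after 3 h and 13.30, 13.23 and 10.54 after 24 h of MCAO. Replicate 3 was the lowest at 24 h, yet above every array of the other groups, and the difference from sham was 6.79 (SE 0.73), 111-fold. The shorter, mmu_circRNA_37285 (chr4:103754180-103755895, plus strand, 1716 bases), read 8.20, 8.06 and 8.21 on the sham arrays, 9.97, 7.99 and 8.74 after 5 min, 11.11, 11.52 and 9.63 after 3 h and 11.26, 10.92 and 10.24 after 24 h of MCAO. It had reached its 24 h level at 3 h, with differences from sham of 2.60 (SE 0.54) at 3 h and 2.65 (SE 0.54) at 24 h, and the arrays of both times overlapped.

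Opcml, a membrane-anchored adhesion protein of the IgLON family, and the neurexin gene Nrxn3, whose protein sits on the presynaptic side, each hosted 1 circle listed at both 3 h and 24 h. The Opcml circle mmu_circRNA_43907 (chr9:28039050-28045364, plus strand, 6315 bases) read 9.19, 8.78 and 8.51 on the sham arrays, 11.51, 9.57 and 10.19 after 5 min, 11.38, 11.94 and 11.68 after 3 h and 13.62, 13.36 and 12.42 after 24 h of MCAO. Its 12 arrays fell in the order of the groups with 1 overlap, replicate 1 of 5 min lying among the 3 h arrays, and the differences from sham were 1.60, 2.84 and 4.31 at the successive times (SE 0.47). The Nrxn3 circle mmu_circRNA_25585 (chr12:88850278-88853112, plus strand, 2835 bases) read 10.90, 10.96 and 11.08 on the sham arrays, 12.91, 10.78 and 11.70 after 5 min, 13.24, 13.55 and 12.66 after 3 h and 14.05, 13.63 and 13.22 after 24 h of MCAO. Most of its difference from sham, 2.65 (SE 0.46) at 24 h, was present at 3 h, where it was 2.17.

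Dlgap2, which encodes a scaffold protein of the postsynaptic density, hosted 2 circles with a common start. The longer, mmu_circRNA_42581 (chr8:14305203-14314292, plus strand, 9090 bases), read 6.30, 6.11 and 6.32 on the sham arrays, 7.47, 6.01 and 6.42 after 5 min, 8.40, 8.97 and 7.97 after 3 h and 9.34, 8.98 and 8.28 after 24 h of MCAO. The shorter, mmu_circRNA_42579 (chr8:14305203-14305966, plus strand, 764 bases), read 6.53, 6.32 and 6.31 on the sham arrays, 7.35, 6.27 and 6.60 after 5 min, 8.42, 9.00 and 7.69 after 3 h and 9.33, 8.90 and 7.87 after 24 h of MCAO. Both stood near the sham level on replicates 2 and 3 of 5 min and above all sham arrays at 3 h and 24 h. The shorter differed from sham by 1.99 at 3 h, just outside the threshold of 2, and the longer by 2.20, just inside it, so that only the longer was listed at 3 h.

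Rbfox1, a splicing factor of neurons and muscle, hosted 2 circles with a common end. Of these, mmu_circRNA_017685 (chr16:5953418-5956863, plus strand, 3446 bases) read 9.91, 10.09 and 10.30 on the sham arrays, 12.17, 10.16 and 10.91 after 5 min, 12.27, 12.62 and 12.25 after 3 h and 13.41, 13.37 and 12.61 after 24 h of MCAO. The other, mmu_circRNA_29158 (chr16:5952576-5956863, plus strand, 4288 bases), is 842 bases longer at its start and read 8.93, 9.35 and 9.59 on the sham arrays, 11.00, 9.31 and 10.04 after 5 min, 11.05, 11.42 and 11.30 after 3 h and 12.94, 12.81 and 11.90 after 24 h of MCAO. Differences from sham at 24 h were 3.02 (SE 0.43) and 3.26 (SE 0.42), and at 3 h 2.28, listed, and 1.97, not listed.

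Beyond the neuronal genes, the circles listed at both 3 h and 24 h came from a cytoskeletal gene, a signalling gene, a complement gene and 2 lncRNA genes. The circle mmu_circRNA_21730 (chr10:20158760-20159555, plus strand, 796 bases) of Map7, a microtubule-associated protein, read 10.45, 10.32 and 10.32 on the sham arrays, 13.43, 10.41 and 11.62 after 5 min, 13.66, 14.09 and 13.45 after 3 h and 14.54, 14.78 and 14.46 after 24 h of MCAO. It was 10.4-fold above sham at 3 h and 18.8-fold at 24 h, and replicate 1 of 5 min lay just under the lowest 3 h array. The circle mmu_circRNA_19110 (chr14:19904158-19904277, minus strand, 120 bases) of Gng2, a G protein gamma subunit, read 9.06, 9.08 and 9.22 on the sham arrays, 11.40, 9.05 and 9.90 after 5 min, 12.14, 12.68 and 11.93 after 3 h and 13.47, 13.25 and 12.66 after 24 h of MCAO. Its 24 h difference was 4.01 (SE 0.48), and replicate 2 of 5 min was at the sham level.

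C3, the central component of complement, hosted mmu_circRNA_30666 (chr17:57218564-57218671, minus strand, 108 bases), which read 9.37, 9.06 and 8.89 on the sham arrays, 10.31, 9.95 and 10.25 after 5 min, 11.19, 11.33 and 11.04 after 3 h and 12.25, 12.57 and 11.85 after 24 h of MCAO. The 4 groups did not overlap and stood in order of time, with 1.06, 2.08 and 3.12 over sham at the successive times (SE 0.29). Pvt1, a lncRNA gene next to Myc, hosted mmu_circRNA_28632 (chr15:62054793-62107465, plus strand, 52673 bases), which read 9.30, 9.63 and 10.09 on the sham arrays, 10.84, 9.19 and 9.92 after 5 min, 12.04, 12.41 and 11.08 after 3 h and 12.31, 12.15 and 11.47 after 24 h of MCAO. It differed from sham by 2.17 at 3 h and 2.31 at 24 h, with overlapping arrays at both times.

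**Figure D2:**
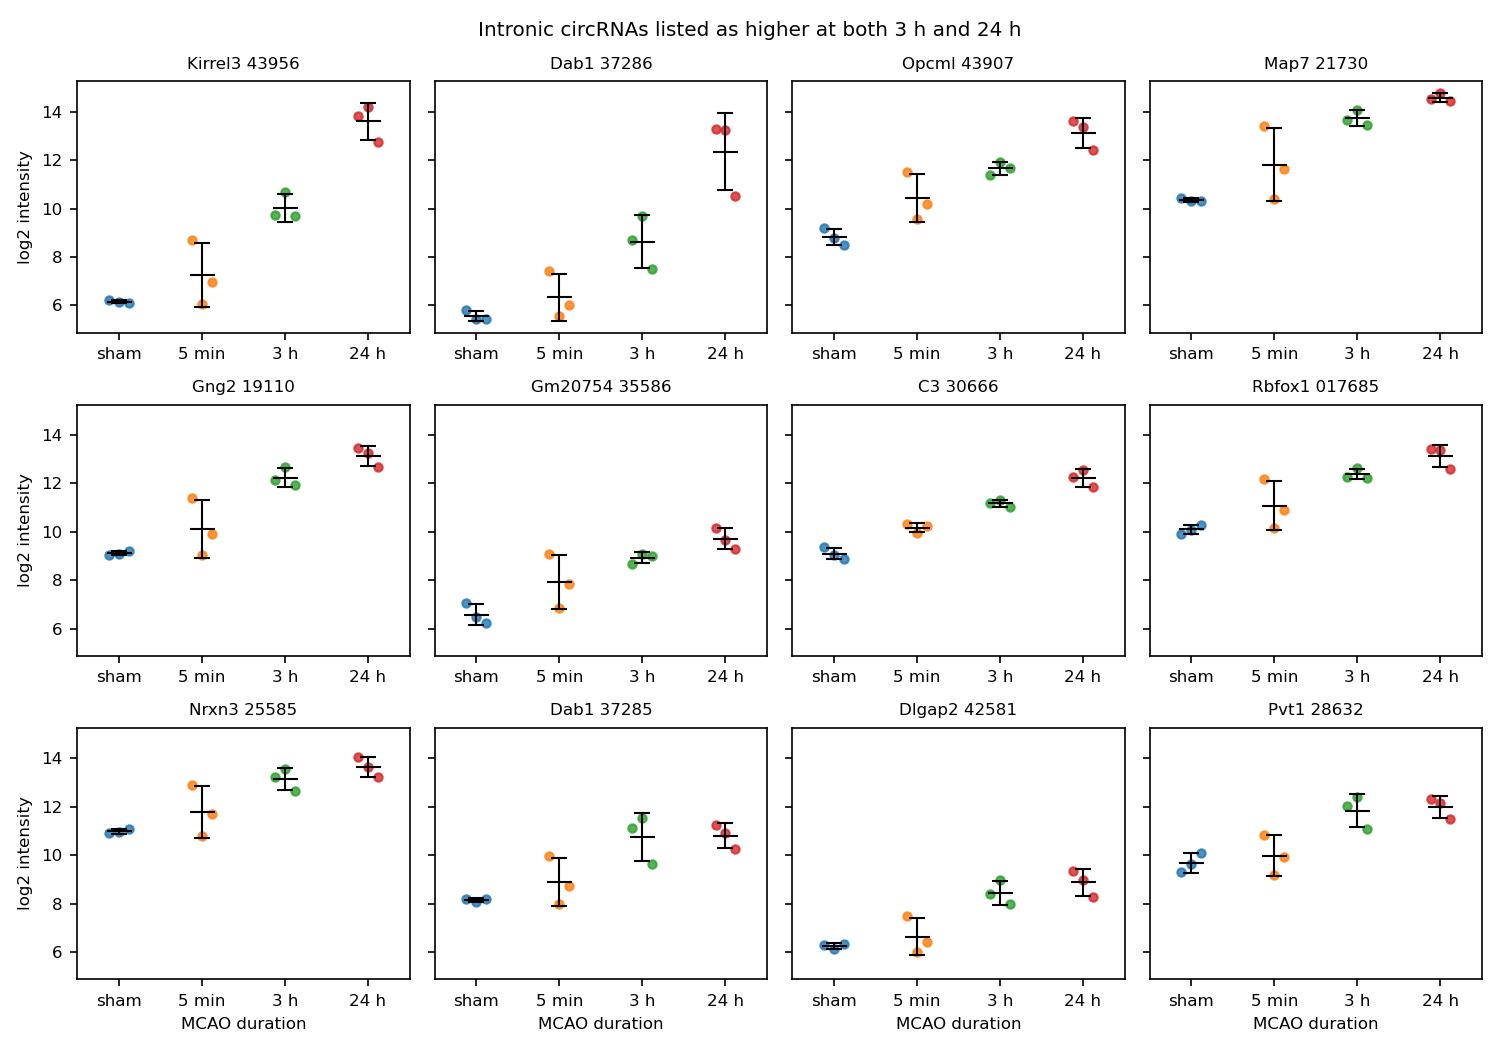
Log2 intensity (vertical axis, shared) of the 12 intronic circRNAs listed as higher at both 3 h and 24 h, by group (horizontal axis). Points are the 3 arrays of a group in the order of their replicate numbers, and bars are the mean ± SD. The spread is widest at 5 min in most panels, where replicate 1 was the highest of the group for all 12 circRNAs, and the Kirrel3 circle shows the largest difference, from 6.15 ± 0.06 (SD, n = 3) in sham to 13.61 ± 0.75 (SD, n = 3) at 24 h.

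Among the 25 circles that were higher at 24 h only, the largest difference was that of mmu_circRNA_19077 (chr12:88455628-88456716, plus strand, 1089 bases) in Adck1, a gene for a mitochondrial protein of the ADCK kinase family. It read 4.89, 4.57 and 4.46 on the sham arrays, 5.81, 5.10 and 4.98 after 5 min, 5.46, 6.43 and 5.38 after 3 h and 11.94, 11.20 and 8.14 after 24 h of MCAO. All 24 h arrays lay above those of the other groups, replicate 3 was far below replicates 1 and 2, and the difference from sham was 5.79 (SE 0.72) at 24 h after 1.11 at 3 h. The other 24 ranged from 2.00 in Lrrtm4 to 4.21 in Ralgapa1 at 24 h. Ralgapa1 had reached 2.04 at 3 h without being listed there.

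The Gpc5 circle mmu_circRNA_28019 (chr14:116116298-116183082, plus strand, 66785 bases) had an uneven 24 h group, with 9.88, 7.47 and 5.28 at 24 h against 4.45, 4.27 and 4.19 in sham, where 2 of its 3 arrays were not well above background.

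Further circles that were higher at 24 h only included those of Runx2, a transcription factor of bone that belongs to the same family as the blood factor Runx1, Hivep3, a zinc finger gene, and the acute-phase gene Serpina3g, with differences from sham of 2.08, 2.10 and 2.17 at 24 h. Among hosts active in neurons, the circles of Ank3, which organises the axon initial segment, Kcnq3, a potassium channel subunit, and Myt1l, a transcription factor of neurons, differed from sham by 2.87, 3.22 and 2.28, that of Fry by 2.90 and that of the protocadherin alpha cluster by 2.43. The circles of Ncoa2, a nuclear receptor coactivator, Plekhm1, a lysosomal adaptor, and Umad1 differed from sham by 3.49, 2.67 and 3.33.

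Very short circles made up 7 of the 60. In addition to those of C3 and Gng2, 4 were higher at 24 h. The Rps13 circle that overlaps Snord14a read 6.68, 6.06 and 5.85 on the sham arrays, 7.10, 6.66 and 6.94 after 5 min, 7.50, 8.13 and 6.67 after 3 h and 10.26, 9.47 and 7.79 after 24 h of MCAO. All its 24 h arrays lay above sham, with replicate 3 the lowest. The Ep400 circle that overlaps a snoRNA gene read 8.79, 8.51 and 8.55 on the sham arrays, 10.64, 9.21 and 9.66 after 5 min, 9.24, 9.46 and 9.88 after 3 h and 11.25, 11.19 and 10.60 after 24 h of MCAO. Ep400 is a chromatin remodeler, and its circle was above all sham arrays on every MCAO array, with more at 5 min (1.22) than at 3 h (0.91). Calu encodes calumenin, a calcium-binding protein of the secretory pathway, and its circle mmu_circRNA_009489 (chr6:29372580-29372670, plus strand, 91 bases) read 7.34, 7.21 and 7.12 on the sham arrays, 8.77, 8.00 and 8.21 after 5 min, 7.69, 7.94 and 8.12 after 3 h and 9.73, 9.43 and 9.11 after 24 h of MCAO. Ppp2r2b encodes a regulatory subunit of protein phosphatase 2A, and its circle mmu_circRNA_31691 (chr18:42645431-42645533, minus strand, 103 bases) read 8.76, 7.82 and 7.30 on the sham arrays, 10.16, 8.86 and 9.30 after 5 min, 9.10, 9.54 and 8.69 after 3 h and 11.74, 10.35 and 8.87 after 24 h of MCAO. For these last 2 the mean at 5 min lay further above sham than that at 3 h, by 1.48 against 1.15 in Ppp2r2b. The 1 short circle that was lower at 24 h lay in Rbm6, an RNA-binding protein gene. That circle, mmu_circRNA_19531 (chr9:107812210-107812329, minus strand, 120 bases), read 7.76, 7.03 and 6.47 on the sham arrays, 5.92, 7.60 and 7.28 after 5 min, 6.63, 6.32 and 5.24 after 3 h and 4.97, 5.26 and 4.75 after 24 h of MCAO. It differed from sham by -2.09 (SE 0.48), and with the slide term by -0.86.

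Hosts related to blood, immunity or the acute phase held 8 circles, of which 5 were listed as higher and 2 as lower at 24 h and 1 as lower at 5 min, with medians of 0.43, 1.15 and 2.09 at the successive times. RNA processing and ribosome genes held 8 circles, 4 higher and 4 lower at 24 h, with medians of 0.12, 0.24 and 0.39. Rbfox1 and Celf2 count in this group and among the neuronal genes. The 10 circles of non-coding hosts had 4 higher and 3 lower at 24 h and 3 higher at 5 min, with medians of 1.00, 0.74 and -1.18. The 16 circles of hosts in no group had 8 higher and 7 lower at 24 h, 1 of the lower ones, in Tsc2, also at 5 min, and the Dpp10 circle lower at 5 min only. The sorting was by short lists of names that held neither Zfpm1, known from blood cells, nor Dpp10, known from neurons. With Zfpm1 counted in, the blood group had 5 higher and 3 lower of 9 and a median of 2.08 at 24 h, with Dpp10 counted in the 12 circles of the second neuronal group had a median of 2.83, and the median of the circles in no group moved from 0.18 to 2.30 without these 2.

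The largest difference downward was that of mmu_circRNA_012978 (chr17:24624819-24625014, minus strand, 196 bases) in Tsc2, whose protein tuberin restrains mTORC1. It read 15.94, 14.93 and 14.12 on the sham arrays, 12.41, 12.58 and 12.48 after 5 min, 14.86, 13.69 and 14.42 after 3 h and 12.38, 10.49 and 9.23 after 24 h of MCAO. Its mean was 14.99 ± 0.91 (SD, n = 3) in sham and 10.70 ± 1.59 (SD, n = 3) at 24 h. It was low on all 5 min arrays, overlapped sham again at 3 h, and was lowest at 24 h, with differences of -2.50 (SE 0.66), -0.67 and -4.29. At 24 h it stood at 0.051 of the sham intensity, and with the slide term the 24 h difference was -4.44.

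B230303A05Rik, a transcribed pseudogene, hosted mmu_circRNA_26097 (chr13:16002457-16003880, minus strand, 1424 bases), which read 10.55, 9.72 and 9.15 on the sham arrays, 9.21, 10.95 and 10.70 after 5 min, 8.91, 9.02 and 5.95 after 3 h and 5.51, 5.46 and 5.66 after 24 h of MCAO. Every array of slide 2, replicate 3 of 3 h included, read at most 5.95 and every array of slide 1 at least 8.91, and the 24 h difference of -4.26 (SE 0.71) became -1.25 with the slide term. Cdk19, a kinase of the Mediator complex, hosted mmu_circRNA_18974 (chr10:40394322-40408366, plus strand, 14045 bases), which read 11.82, 11.85 and 11.77 on the sham arrays, 11.54, 11.03 and 11.23 after 5 min, 11.92, 11.81 and 10.22 after 3 h and 9.32, 8.86 and 9.08 after 24 h of MCAO. Here too replicate 3 of 3 h parted from its group toward the 24 h arrays, and -2.72 (SE 0.40) at 24 h became -1.07. Trim37, a ubiquitin ligase, hosted mmu_circRNA_19033 (chr11:87146931-87149364, plus strand, 2434 bases), which read 11.31, 10.79 and 10.53 on the sham arrays, 10.26, 11.00 and 10.80 after 5 min, 10.66, 10.71 and 9.62 after 3 h and 8.34, 7.62 and 8.43 after 24 h of MCAO. Its 24 h difference was -2.75 (SE 0.39), or -1.68 with the slide term.

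Etv6, a transcriptional repressor needed in blood stem cells, hosted 2 circles that end at the same base and start 3 bases apart. The longer, mmu_circRNA_19441 (chr6:134062060-134066465, plus strand, 4406 bases), read 13.85, 13.21 and 12.54 on the sham arrays, 12.36, 11.38 and 11.80 after 5 min, 11.79, 11.64 and 11.98 after 3 h and 10.60, 9.88 and 10.45 after 24 h of MCAO. The shorter, mmu_circRNA_003371 (chr6:134062063-134066465, plus strand), read 14.24, 13.71 and 13.25 on the sham arrays, 13.45, 12.17 and 12.87 after 5 min, 12.63, 12.52 and 12.74 after 3 h and 11.27, 11.77 and 11.86 after 24 h of MCAO. Both lay below sham on the mean at all 3 times, and their 24 h differences of -2.90 (SE 0.38) and -2.10 (SE 0.36) became -3.16 and -2.27 with the slide term, so that the Etv6 circles were among the 5 that stayed at or below -2. Whether their probes tell these circles apart was not tested.

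Rbm4, an RNA-binding splicing regulator that overlaps the gene model Gm21992, hosted 2 circles that share their downstream end, the lower coordinate on this strand. Of these, mmu_circRNA_013935 (chr19:4784723-4785567, minus strand, 845 bases) read 11.72, 12.04 and 11.97 on the sham arrays, 11.48, 12.20 and 11.83 after 5 min, 10.88, 11.24 and 10.94 after 3 h and 8.69, 10.06 and 10.98 after 24 h of MCAO, and mmu_circRNA_015638 (chr19:4784723-4788042, minus strand, 3320 bases) read 11.37, 11.64 and 11.63 on the sham arrays, 11.09, 11.73 and 11.46 after 5 min, 10.49, 10.86 and 10.50 after 3 h and 8.53, 9.55 and 10.37 after 24 h of MCAO. They ran in parallel on all 12 arrays, at the sham level at 5 min, slightly below it at 3 h, and with differences of -2.01 and -2.06 from it at 24 h. A sense overlapping circle of the list with the same downstream end, 9287 bases long, had differences of -0.24, -0.99 and -2.13 at the 3 times.

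Further circles that were lower at 24 h lay in Sf3b1, a core factor of the spliceosome (-2.15), Tlk1 (-2.22), Rgs6, a regulator of G protein signalling (-2.41), Tmco1, a calcium channel of the endoplasmic reticulum (-2.65), the gene models Gm34207 and Gm36447 (-2.45 and -2.22), and Zfpm1 (-2.01). With the slide term these values ranged from -2.12 to -0.10.

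Gm20754, a lncRNA gene of 528480 bases on chromosome 3 with no known function, hosted 4 circles that followed 2 courses. Of these, 3 start at the same base. The shortest, mmu_circRNA_35587 (chr3:73277865-73333103, plus strand, 55239 bases), read 8.00, 8.52 and 8.72 on the sham arrays, 10.42, 10.76 and 10.71 after 5 min, 9.37, 10.07 and 8.64 after 3 h and 7.16, 7.51 and 7.76 after 24 h of MCAO. The middle one, mmu_circRNA_35588 (chr3:73277865-73339144, plus strand, 61280 bases), read 8.43, 8.83 and 9.04 on the sham arrays, 10.83, 11.04 and 10.99 after 5 min, 9.54, 10.19 and 8.00 after 3 h and 7.41, 7.22 and 6.65 after 24 h of MCAO. The longest of the 3, mmu_circRNA_35589 (chr3:73277865-73341175, plus strand, 63311 bases), read 8.52, 9.17 and 9.48 on the sham arrays, 10.99, 11.15 and 11.07 after 5 min, 9.70, 10.28 and 8.78 after 3 h and 7.58, 7.47 and 7.88 after 24 h of MCAO. All 3 stood above every sham array at 5 min, were lower at 3 h and lay below every sham array at 24 h. Their differences from sham were 2.22, 2.19 and 2.01 at 5 min and -0.94, -1.67 and -1.41 at 24 h, and with the slide term the 24 h values became 0.14, 0.20 and -0.20.

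The fourth circle, mmu_circRNA_35586 (chr3:73269612-73341175, plus strand, 71564 bases), starts 8253 bases upstream, ends where the longest of the 3 ends and holds all 3 within its span. It read 7.05, 6.47 and 6.22 on the sham arrays, 9.09, 6.86 and 7.85 after 5 min, 8.69, 9.10 and 9.02 after 3 h and 10.17, 9.68 and 9.29 after 24 h of MCAO. Its 5 min arrays were spread widely, with replicate 1 highest, while those of the other 3 circles were tight. It was listed as higher at 3 h and 24 h, with differences of 1.35, 2.36 and 3.13 from sham at the successive times.

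**Figure D3:**
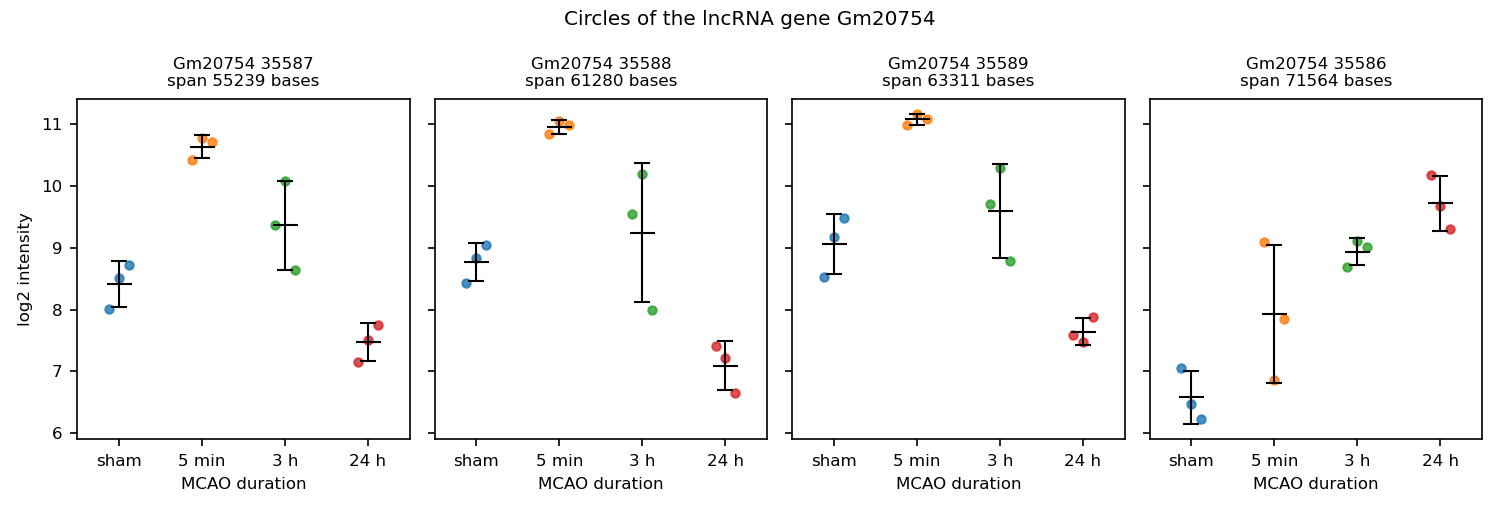
Log2 intensity (vertical axis, shared) of the 4 circles of Gm20754 by group (horizontal axis), with points for the 3 arrays of a group and bars for the mean ± SD. The 3 circles with a common start peak at 5 min, at 10.63 ± 0.18 (SD, n = 3), 10.95 ± 0.11 (SD, n = 3) and 11.07 ± 0.08 (SD, n = 3), and are lowest at 24 h, while mmu_circRNA_35586 with its upstream start is highest at 24 h, at 9.71 ± 0.44 (SD, n = 3).

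The other 3 circles listed at 5 min only were lower there. Dpp10, an auxiliary subunit of Kv4 potassium channels, hosted mmu_circRNA_20764 (chr1:124633364-124639139, minus strand, 5776 bases), which read 10.81, 9.73 and 8.85 on the sham arrays, 7.66, 7.24 and 7.37 after 5 min, 9.74, 9.60 and 9.79 after 3 h and 9.07, 7.81 and 7.01 after 24 h of MCAO. Epha5, an ephrin receptor of axon guidance, hosted mmu_circRNA_38889 (chr5:84233582-84265639, minus strand, 32058 bases), which read 8.33, 7.79 and 7.28 on the sham arrays, 5.69, 5.06 and 5.29 after 5 min, 8.17, 8.35 and 7.40 after 3 h and 7.58, 5.28 and 5.33 after 24 h of MCAO. Ptpn12, a tyrosine phosphatase that acts on the cytoskeleton, hosted mmu_circRNA_38199 (chr5:21029775-21031725, minus strand, 1951 bases), which read 7.65, 9.21 and 9.59 on the sham arrays, 6.69, 6.64 and 6.60 after 5 min, 8.45, 7.75 and 8.34 after 3 h and 6.95, 8.29 and 8.82 after 24 h of MCAO. In all 3 the 5 min arrays lay below every sham array and the 3 h arrays overlapped sham again. The differences from sham at 5 min were -2.38 (SE 0.52), -2.45 (SE 0.54) and -2.17 (SE 0.52). At 24 h the Dpp10 and Epha5 circles differed from sham by -1.83 and -1.73, with replicate 1 of 24 h the highest of its group and level with sham in both.

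The comparison of 3 h with 5 min used neither the sham nor the 24 h arrays, and the 41 circles listed at 24 h only were tested in it. Their listing as higher or lower came from 24 h, while the arrays of 5 min and 3 h took part in the choice in that circles listed at those times were left out. These arrays also entered the estimate of the spread behind the listing, so the shares of all probes below are no fully independent gauge. In a limma fit of these 6 arrays with Benjamini-Hochberg adjustment over 10678 probes, 25 probes were called higher (0.234%) and 25 lower (0.234%) at 3 h, and 0 of the 41 circles were called. At an unadjusted p under 0.05, 9 of the 25 circles listed as higher were higher (36%, beside 12.1% of all probes) and none lower, and 6 of the 16 listed as lower were lower (37.5%, beside 15.3%) and none higher. The arrays of both times did not overlap, in the listed direction, for 10 of the 25 (40%, beside 13.6%) and for 7 of the 16 (43.75%, beside 20.9%). Both shares lay above the share of all probes, and circles of 1 locus count separately in them. These p-values measure the spread between the arrays at hand.

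All 54 circles listed at 24 h, a set for which the 5 min and 3 h arrays entered only the estimate of the spread, were then tested as well, an addition made after the data were seen. None was called. At an unadjusted p under 0.05, 20 of the 37 higher circles were higher at 3 h (54.1%, beside 12.1% of all probes) and none lower. Of the 17 lower circles, 6 were lower (35.3%, beside 15.3%) and 1, in Tsc2, higher. The arrays did not overlap in the listed direction for 18 of the 37 (48.6%, beside 13.6%) and for 7 of the 17 (41.2%, beside 20.9%). The median differences were 1.04 and -0.81, against -0.10 over all probes.

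The direction of the change between 5 min and 3 h was that of the listing in 20 of the 25 higher and 15 of the 16 lower circles. Their median differences were 0.72 and -0.81, against -0.10 over all probes. Within slide 1, without replicate 3 of 3 h, the medians were 0.83 and -0.56, against -0.08. There 20 of the 25 higher and 2 of the 16 lower circles were higher at 3 h, beside 4739 of the 10678 tested probes. The circles moved together by array: replicate 1 was the highest of the 5 min arrays for 36 of the 37 circles listed as higher at 24 h. These counts are thus not counts of independent observations.

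Among the circles listed at 24 h only, the 3 with the lowest adjusted p came just short of the threshold. The A230057D06Rik circle that holds Mir344b read 6.25, 5.76 and 5.98 at 5 min and 7.22, 7.49 and 7.67 at 3 h, a difference of 1.46 (SE 0.23, adjusted p = 0.0529, limma). Zfpm1, a cofactor of the blood cell factor GATA1, hosted mmu_circRNA_19502 (chr8:122305354-122307643, plus strand, 2290 bases), which read 9.72, 10.30 and 10.00 at 5 min and 8.32, 8.67 and 7.70 at 3 h, a difference of -1.78 (SE 0.32, adjusted p = 0.0529, limma). The Celf2 circle read 7.15, 5.98 and 6.22 at 5 min and 8.08, 8.15 and 8.13 at 3 h, a difference of 1.67 (SE 0.33, adjusted p = 0.0552, limma). In all 3 the arrays of both times did not overlap. The call turned on single arrays: without replicate 3 of 3 h, 4 circles passed, those of A230057D06Rik and Zfpm1 and the shorter Dlgap2 circle among them, and without replicate 1 of 5 min, 7 passed.

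**Figure D4:**
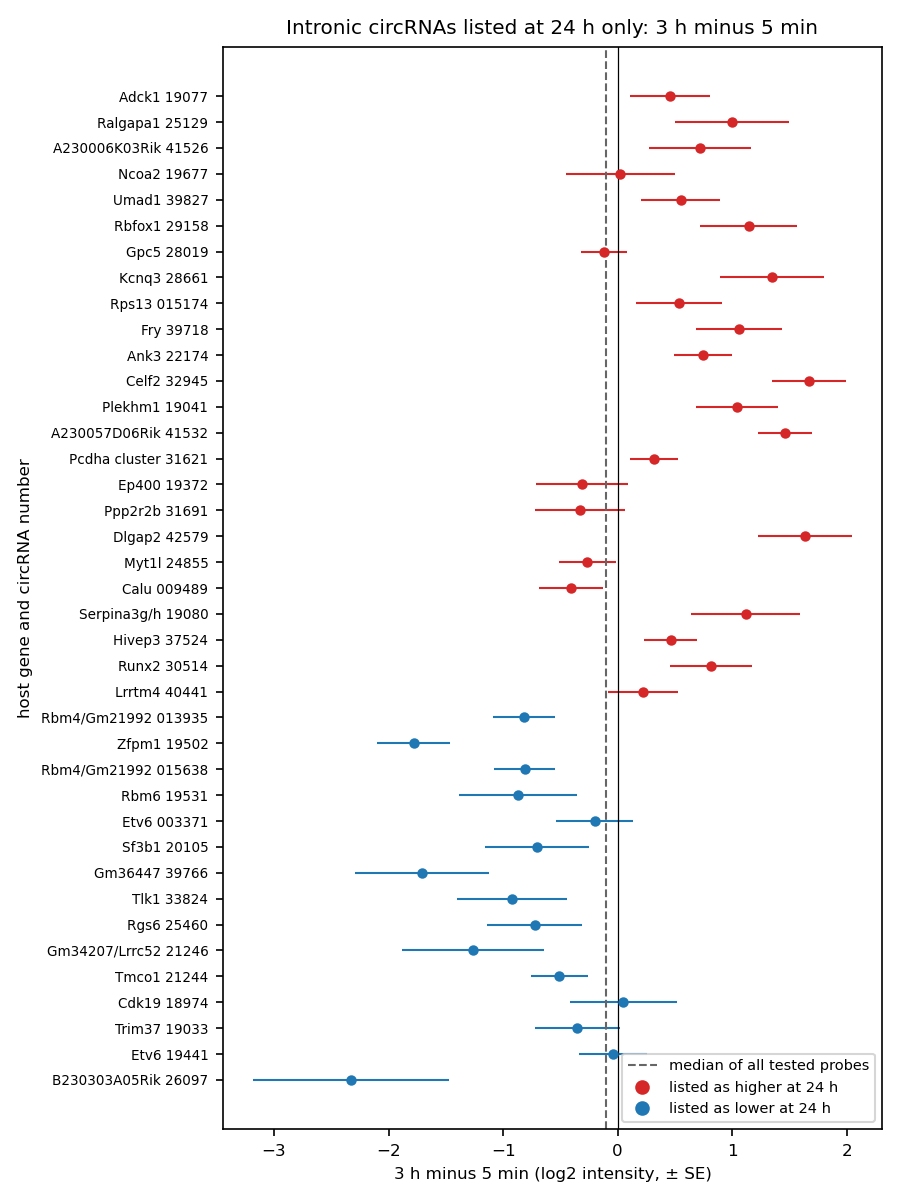
Difference between 3 h and 5 min (horizontal axis, log2 intensity, points with ± SE from limma) for 39 of the 41 intronic circRNAs listed at 24 h only (rows, ordered by 24 h minus sham). Circles listed as higher lie mostly right of 0 and those listed as lower left of it, 19 of 24 and 14 of 15 of those drawn, and these are not independent observations. The dashed line marks the median of all tested probes, and no circle passed an adjusted p of 0.05.

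In the comparison of 24 h with 3 h the 6 circles listed at 5 min only were tested, the arrays of 3 h and 24 h having taken part in the choice in that circles listed there were left out. Both groups of arrays also entered the estimate of the spread behind the listing. The Tsc2 circle, listed also at 24 h, was added after the data were seen, and it was lower too and not called. No probe was called by limma (0 of 10678), with 7.36% higher and 9.46% lower at an unadjusted p under 0.05, and none of the 6 circles was called. All 6 were lower at 24 h than at 3 h, 5 of them at an unadjusted p under 0.05, with a median of -1.90 against -0.05 over all probes. The 3 Gm20754 circles with a common start had differences of -1.89, -2.15 and -1.94, with adjusted p = 0.117, 0.135 and 0.115 (limma). The group of 24 h lies wholly on slide 2 and only replicate 3 of 3 h shares that slide. Without replicate 1 of 24 h the Epha5 and Dpp10 circles were called.

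Long host genes were more frequent among the higher circles. Of the 36 circles listed as higher at 24 h that lie inside a gene, 15 (41.7%) had a host over 500000 bases, with a median host length of 399957 bases, and of the 17 listed as lower 1 (5.88%), in Rgs6, with a median of 99800. Among exonic circles of the list the shares were 29 of 333 (8.71%) and 11 of 243 (4.53%), with medians of 97908 and 92313 bases. The 15 circles came from fewer genes, since Dab1, Rbfox1 and Dlgap2 count 2 times each. The median spans of the circles themselves were similar, at 2321 and 2434 bases, but no circle listed as lower at 24 h spanned more than 14045 bases. Those listed as higher reached 139260 bases. Lengths were not used to choose the circles, but the directions were, so no test is given.

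**Figure D5:**
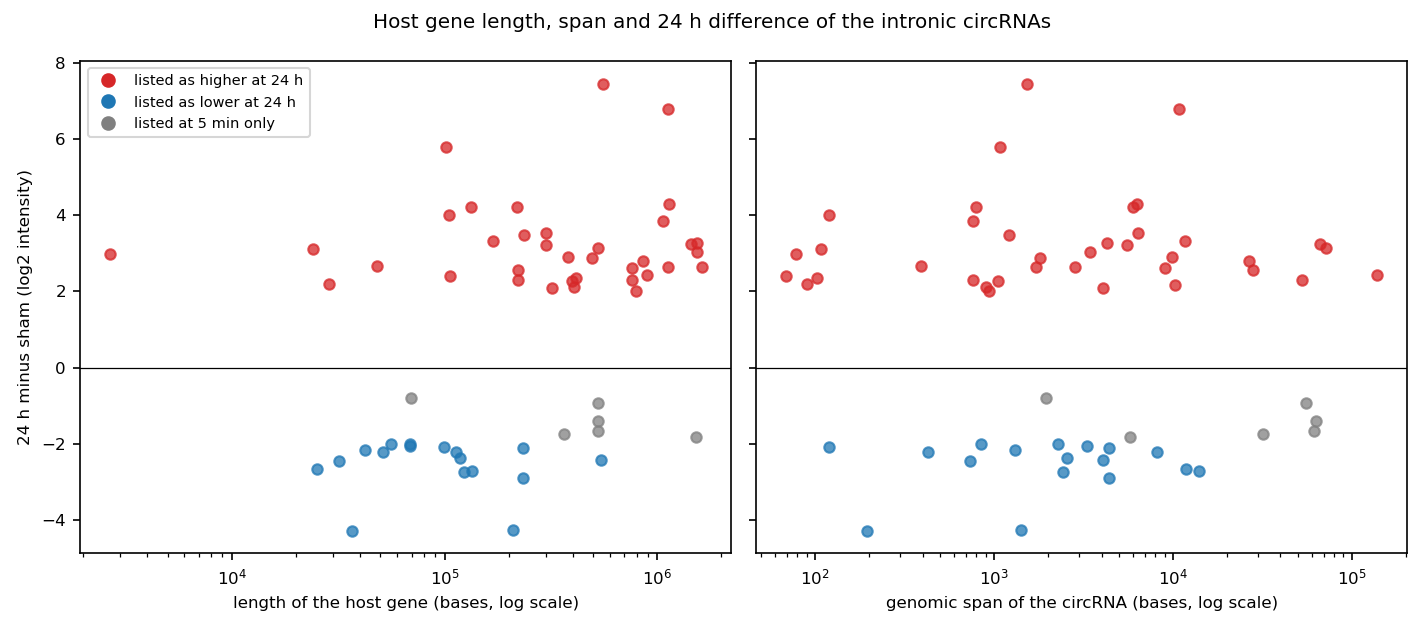
Difference between 24 h and sham (vertical axis, log2 intensity) of the intronic circRNAs against the length of the host gene (left, log scale, 59 circles inside a gene) and against the genomic span of the circle (right, log scale, all 60). Hosts over 500000 bases hold 15 circles listed as higher and 1 listed as lower at 24 h. The spans of both overlap up to 14045 bases, beyond which no circle was listed as lower at 24 h.

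Circles of other types from the same hosts did not always move with the intronic circle. The list held 9 such circles from 7 of the 51 host genes. The exonic circle of Adck1 was higher, as the intronic one was, with differences from sham of 0.62, 2.98 and 2.95 at the successive times. Both exonic circles of A230057D06Rik were higher at 24 h, by 2.12 and 2.37. Epha5 differed: its exonic circle stood 0.91, 2.37 and 3.21 above sham at the 3 times, while the intronic one stood at -2.45, 0.17 and -1.73. Tlk1, a chromatin kinase gene, had 1 exonic circle that was higher at 24 h, by 2.14, and 1 that was lower, with -2.78, beside an intronic circle that was lower, with -2.22. Whether circles of a host differ was not tested.

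Intronic circles of different genes lay within 1000 kb of each other in 4 places and shared a direction at 24 h in 3 of them. Of the 54 circles listed at 24 h, 37 were higher, so a shared direction is common in any pair of them. Whether neighbours share it more often was not tested. On chromosome 7 the circles of A230006K03Rik and A230057D06Rik lay 503.2 kb apart and were 3.54 and 2.57 above sham at 24 h. On chromosome 12 the circles of Adck1 and Nrxn3 lay 393.6 kb apart, both higher, and on chromosome 5 those of Fry and Gm36447 lay 628.8 kb apart and had opposite directions, 2.90 and -2.22. On chromosome 1 the circles of Tmco1 and of Gm34207 lay 128.4 kb apart and were -2.65 and -2.45 from sham at 24 h.

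The circles nearest the threshold of 2 show how the list was bounded. Just inside it lay Lrrtm4 at 24 h (2.00), the shorter Rbm4 circle (-2.01), Zfpm1 (-2.01) and mmu_circRNA_35589 of Gm20754 at 5 min (2.01). Just outside lay A230006K03Rik (1.99), the shorter Dlgap2 circle (1.99) and the longer Rbfox1 circle (1.97), all at 3 h.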

How the data were processed

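Whole-blood RNA of 12 mouse samples (sham and the 3 durations of MCAO, 3 arrays each) was hybridized to 1-colour circRNA arrays of 15712 spots. The deposited scanner files hold intensity values per spot, extracted by the authors with Agilent Feature Extraction 11.0.1.1 per the submitters' processing notes, and a deposited table holds log2 values that the authors quantile normalized. The table served only as an alternative.

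Median signals were background corrected with normexp (offset 0) on the local background, quantile normalized and log2 transformed with limma 3.58.1 in R 4.3.3 (statmod 1.5.0). Probes had to exceed 1.1 times the 95th percentile of the 77 negative control spots on all 12 arrays. The background step sets the size of the differences of dim probes, and quantile normalization assumes that most probes do not shift together.

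Each listed intronic circRNA was linked to the probe whose mean over the 12 arrays and group differences matched those of the list within 5e-04, which gave 60 of 60 with a largest gap of 0.000491. The values of the list served as this identity key and for nothing else. Comparisons of 3 h with 5 min and of 24 h with 3 h were fitted on their 6 arrays with limma (lmFit, eBayes with trend, two-sided, Benjamini-Hochberg over 10678 probes, called at an adjusted p of at most 0.05). Differences from sham and their SEs came from a fit of all 4 groups. The fits were tested on simulated data. No deposited column was left out for want of a sample (0 columns).

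Members, host groups and tests were chosen with earlier results of these data known. Per-array values were given for circRNAs listed at more than 1 time or at 5 min, the 5 largest differences in each direction at 24 h, circles that share a host and circles under 150 bases, and Gpc5, Zfpm1, Celf2 and A230057D06Rik were singled out after their values were seen. Alternatives covered background, normalization, filter, variance model, slide, replicate block and left-out arrays. The number of arrays limits the precision. Bases at the circle ends were not analysed here, and 2 circles are not reported here by name. Same-numbered arrays deviated together in all 3 pairs (r over 0.1) only between 24 h and sham (0.40, 0.12 and 0.46), a comparison with no test here, and no label says what the numbers share.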

Additional observations from a re-analysis of the deposited data

Results flagged for a closer look

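The 3 circles of Gm20754 that start at the same base stood above every sham array at 5 min and below every sham array at 24 h. Their differences from sham were 2.22 and -0.94 for mmu_circRNA_35587, 2.19 and -1.67 for mmu_circRNA_35588, and 2.01 and -1.41 for mmu_circRNA_35589. The difference between these 2 times was not tested. The 24 h arrays lie on another slide than the sham and 5 min arrays, and with slide as a term in the model the 24 h differences were 0.14, 0.20 and -0.20. These circles overlap over most of their spans, so the 3 are not separate observations.

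The Zfpm1 circle mmu_circRNA_19502 lay above every sham array at 5 min, with a difference of 0.96, and below every sham array at 3 h and 24 h, with differences of -0.82 and -2.01. At 3 h the gap was slight, with the highest 3 h array at 8.67 and the lowest sham array at 8.68. With the slide term the differences from sham at 3 h and 24 h were -0.55 and -1.21. The difference between 3 h and 5 min was -1.78 with an adjusted p of 0.0529 (limma), and that between 24 h and 5 min was not tested.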

How the results depend on the processing

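No median of the intronic circles given below changed its direction. The 37 circles listed as higher and the 17 listed as lower at 24 h kept their sign under every scaling, while the median of all probes at 24 h moved from -0.18 to 0.03 with the processed signal. With 3 h against 5 min, 0 of the 41 circles listed at 24 h only were called, and circles listed at 5 min or 3 h were not counted. The number was 33 with array weights, 4 with a fixed slide term and likewise with a random one. It was 3 on probes well above background on all arrays, 2 without the mean-variance trend and 1 in the fit of all 12 arrays. It was 0 to 7 with 1 array left out (7 without replicate 1 of 5 min, 4 without replicate 3 of 3 h). Of all probes, 50 were called, against 6208 with array weights, 594 with a fixed and 485 with a random slide term, 222 in the fit of all 12 arrays, 202 on probes well above background, 187 without the trend, 32 with cyclic loess, 18 with the limit on 3 arrays, 17 each for the deposited table, no filter and offset 50, 16 with robust estimation, 14 without background subtraction, and 0 to 619 with 1 array left out. Numbers of calls thus rest on single arrays and on the model of variance, and the cause was not tested.

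With 24 h against 3 h, 0 of the 6 circles were called, but 3 in the fit of all 12 arrays, 5 with array weights and 0 to 2 with 1 array left out (2 without replicate 1 of 24 h). Of all probes, 497 and 5463 were called in those fits and 0 to 61 with 1 array left out (61 without replicate 3 and 53 without replicate 1 of 24 h).

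The median at 24 h of the 17 lower circles was -2.38 and -1.68 with the slide term. At 5 min the median of the 3 higher circles was 2.19, or 2.06 with offset 50 and 2.01 to 2.33 with 1 array left out. That of the 4 lower circles was -2.41, or -2.17 for the deposited table, -1.98 without background subtraction, -1.93 with offset 50, -2.58 with the processed signal and -2.78 to -2.11 with 1 array left out. With Zfpm1 and Dpp10 taken out, an alternative added after seeing the data, the median at 24 h of the circles in no host group moved from 0.18 to 2.30. By the mean of the arrays alone, 19 circRNAs were linked to a probe.

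In the tested comparisons replicate numbers did not pair the samples: deviations of same-numbered arrays correlated at -0.27, -0.00 and -0.11 between 3 h and 5 min and at -0.52, 0.42 and -0.16 between 24 h and 3 h. Between 24 h and sham they correlated at 0.40, 0.12 and 0.46, and the block leaves a difference of complete, balanced groups as it is. With the replicate block, 10 probes were called at 3 h against 5 min, and no median moved beyond rounding. Of the 41 circles listed at 24 h only, none was called at 3 h against 5 min. Of the 6 listed at 5 min only, none was called at 24 h against 3 h.

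Sham and 24 h arrays share no slide, and replicate 3 of 3 h alone links the slides, so differences at 24 h cannot be told apart from the slide without it. The background of slide 2 was higher. Circles dim in sham, such as Gpc5, have a level there that is only a bound. Splice-site bases, and shifting circle ends by 1 base, were not run because no genome was given.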
